A study of Mus musculus with 6 samples.

Results

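Potassium channel genes were followed through depolarization of cultured mouse cortical neurons. The group was chosen by name, as the protein-coding genes whose symbol begins with Kcn and a further letter, and 94 of the 43432 listed genes fitted. They comprised 40 voltage-gated subunits, 15 inward rectifiers, 14 two-pore channels, 8 calcium-activated or related Slo channels and 17 auxiliary subunits. A further 5 names, of transcripts antisense to or overlapping a channel gene (Kcnmb4os1, Kcnmb4os2, Kcnd3os, Kcnab3os and Kcnq1ot1), were left out.

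The cells were wild-type cortical neurons from C57BL/6 embryos at E16.5, with male and female tissue pooled, and were used after 7 days in vitro. At day 6 every culture, the 0 h cultures included, was silenced overnight with 1 µM tetrodotoxin, which blocks sodium channels, and 100 µM DL-AP5, which blocks NMDA receptors. The cultures were then depolarized with KCl at 55 mM, for a time of 0, 2 or 6 h, with 2 libraries per time point and 6 in all. The replicates are described as biological, but nothing says that they came from separate cultures or animals, so p-values measure the spread between these samples. The 0 h group therefore stands for silenced neurons and is the background for each later value, and recovery from the blockers and response to KCl were not separated by a further group.

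Potassium channels let potassium leave the cell and so set the resting potential, repolarize the action potential and pace firing. Voltage-gated channels open on depolarization, inward rectifiers and two-pore channels carry current near rest, and calcium-activated channels couple firing to calcium entry. Some voltage-gated genes encode silent subunits, which form no channel alone and alter the channels of the Kv2 family when they assemble with them. Auxiliary subunits bind the pore-forming proteins and change their gating or their delivery to the membrane. Raised external KCl lowers the potassium gradient on which all of these channels draw.

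Library depth was even, with 25959298 to 28573067 expected counts per library, of which the potassium channel genes took 0.2016% to 0.2272%. The 2 h replicates differed more than the others. For the 61 members averaging 50 normalized counts or more, log2 differences between replicates had an SD of 0.213 (0 h), 0.397 (2 h) and 0.181 (6 h), and over 12290 genes it followed GC content most closely at 2 h (Spearman's rho across genes -0.735, against -0.393 at 0 h and -0.28 at 6 h). Neuronal markers summed to 2624 to 3386 TPM (a level per transcript length and library depth), astrocyte markers to 604.2 to 906.4 TPM, oligodendrocyte lineage markers to 96.2 to 149.4 TPM, progenitor markers to 113.8 to 133.2 TPM, microglial markers to 2.37 to 6.48 TPM and vascular markers to 3.21 to 4.98 TPM, so the libraries held neurons together with glia. The activity-induced genes Fos, Npas4, Bdnf, Nr4a1 and Arc were all called higher at both later times (5 of 5). Fewer cells of a type and less RNA per cell cannot be told apart in such bulk libraries.

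In silenced neurons, most of the potassium channel repertoire was present. Of the 94 members, 65 were at 1 TPM or more at 0 h and 29 were at 10 TPM or more, while 12 did not exceed 3 counts in any library. Ranks 2, 3 and 4 by mean TPM at 0 h were held by Kcnip1 (52.6 and 49.5 TPM), an auxiliary subunit of the A-type channels, Kcna6 (41.1 and 42.3 TPM), a voltage-gated subunit of the Kv1 family, and Kcnk2 (41.3 and 38.0 TPM), the mechanosensitive two-pore channel TREK-1. Kcnip1 lay above Kcna6 and Kcnk2 by more than the spread between libraries, whereas the values of Kcna6 and Kcnk2 overlapped. The calcium-activated class was led by Kcnma1 (36.1 and 30.4 TPM), the pore of the big-conductance BK channel, and the inward rectifiers by Kcnj3 (24.0 and 22.6 TPM) and Kcnj10 (19.4 and 20.5 TPM).

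**Figure D1:**
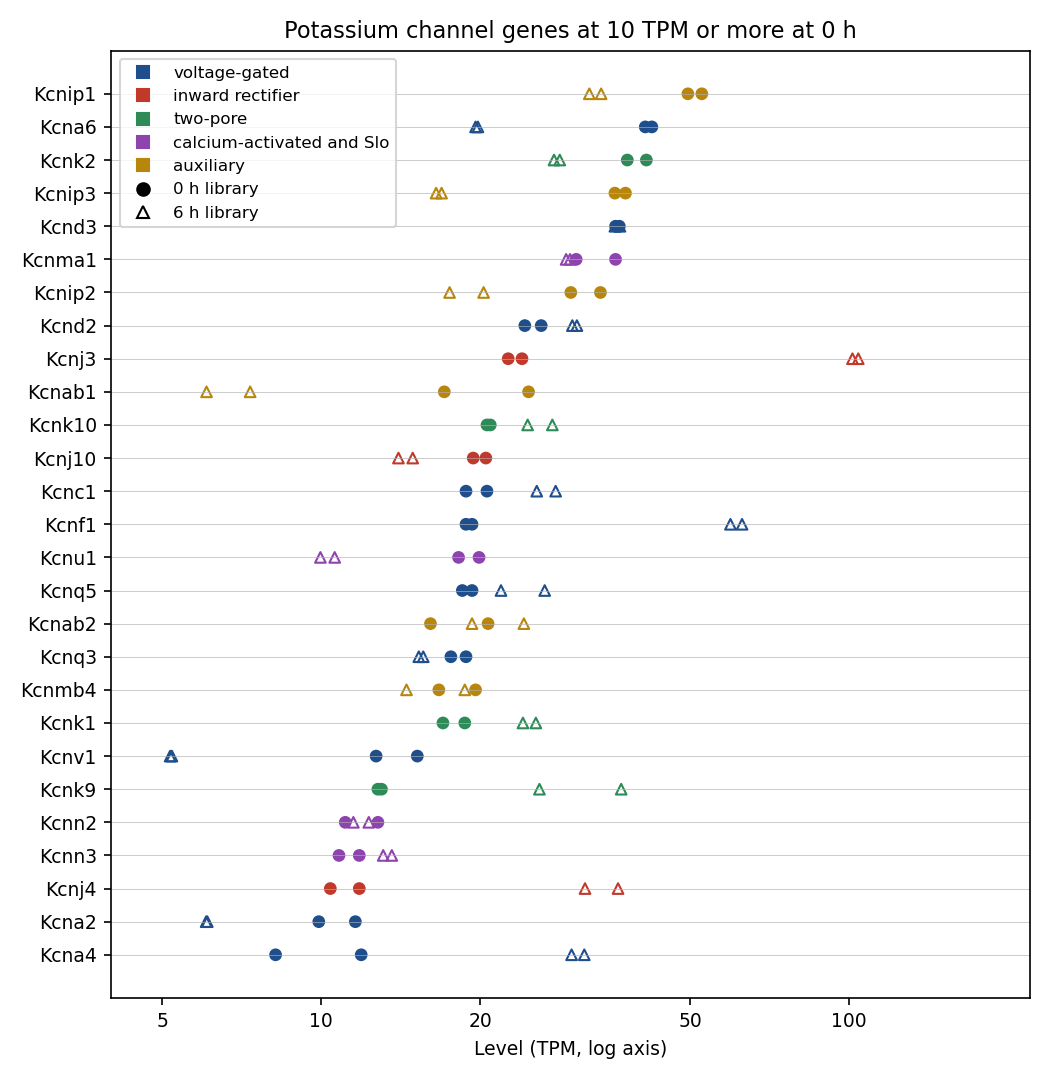
Levels of 27 of the 29 members at 10 TPM or more at 0 h (the other 2 are not shown) (horizontal log axis, TPM), with each filled circle a 0 h library, each open triangle a 6 h library and colour giving the class. Kcnj3 moves from 24.0 and 22.6 TPM to 104.1 and 101.5 TPM, and Kcnab1 moves from 24.7 and 17.1 TPM to 6.06 and 7.33 TPM.

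Every class had members with very low counts. The 15 members left without an adjusted p, because their counts were too low for the test, were the inward rectifiers Kcnj8 and Kcnj15, the two-pore channels Kcnk7, Kcnk12, Kcnk16 and Kcnk18, the voltage-gated Kcna7, Kcna10, Kcnq1, Kcng4 and Kcnv2, the calcium-activated Kcnn4, and the auxiliary Kcne1, Kcne3 and Kcnmb1. Several are best known outside the cortex, such as Kcnq1 and Kcne1 in heart and inner ear and Kcnk18 in sensory ganglia. Kcnu1, the sperm channel Slo3, was listed at 18.2 and 19.9 TPM at 0 h, but with normalized counts of 184.6 and 201.4 and an effective length of 684 to 772 bases over the libraries, so its level in TPM rests on a short transcript.

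The summed level of the members was lowest at 2 h and highest at 6 h. It was 930.8 and 902.0 TPM at 0 h, 861.5 and 868.2 TPM at 2 h, then 1003 and 1025 TPM at 6 h. The inward rectifiers held 9.01% and 9.34% of this sum at 0 h, 10.0% and 9.56% at 2 h, then 18.3% and 18.5% at 6 h. Kcnj3 alone made up 28.6% and 26.8% of the inward rectifier sum at 0 h and 56.8% and 53.6% at 6 h. Without Kcnj3 the class still summed to 59.8 and 61.7 TPM at 0 h and to 79.2 and 87.8 TPM at 6 h. The auxiliary subunits went the other way, from 22.4% and 23.0% at 0 h to 14.6% and 14.5% at 6 h, and the voltage-gated genes kept between 47.1% and 48.5% at all times. These sums have no test, and for all 5 classes the 6 h libraries did not overlap those of 0 h.

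**Figure D2:**
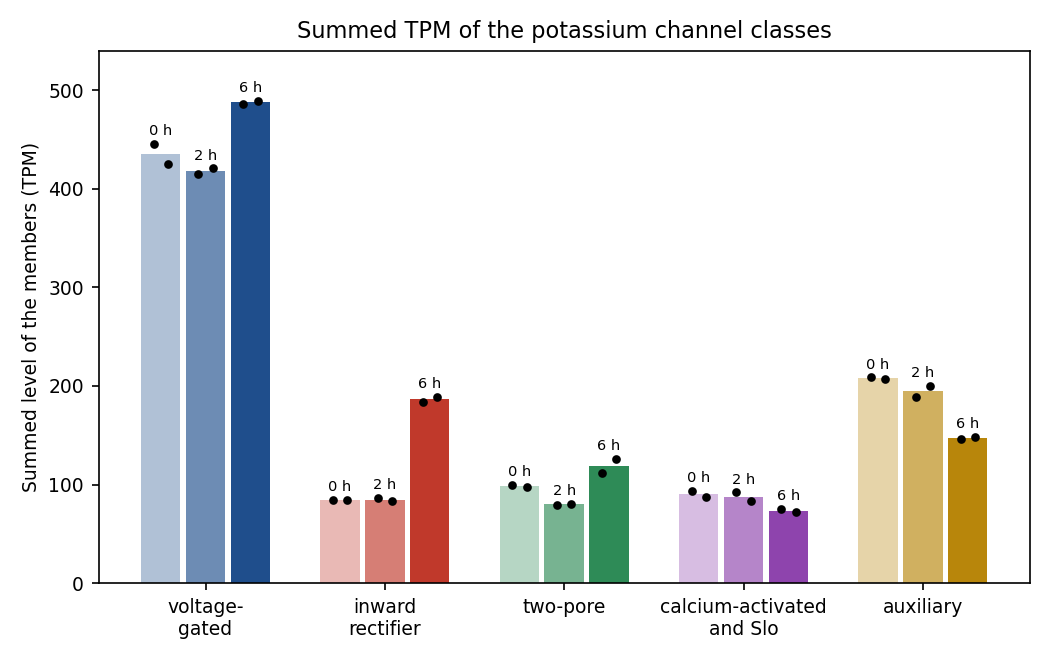
Summed TPM of the members of each class (vertical axis) by time in KCl, with bars for the mean of 2 libraries and points for each library. The inward rectifiers go from 83.9 and 84.2 TPM at 0 h to 183.3 and 189.3 TPM at 6 h, and the auxiliary subunits from 208.7 and 207.5 TPM to 146.3 and 148.3 TPM.

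To find the early response of the channel genes, 2 h was compared with 0 h. DESeq2 calls rest on an adjusted p no higher than 0.05 together with a log2 change of more than 1 in size, and differences between times are given in counts normalized for library size. Gene positions are those of GENCODE M21 on GRCm38. Of 79 members with an adjusted p, 5 (6.33%) were called higher, against 3.62% of all genes tested, and 6 (7.59%) were called lower, against 5.94% of all genes tested. The median log2 fold change was 0.15 over the tested members and 0.015 over all genes tested. With library totals in place of size factors, which moved the median of all genes by -0.17, 5 members were called higher and 11 lower, with Kcna2, Kcna4, Kcnd1, Kcng3 and Kcnk10 added.

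The genes that rose by 2 h were a silent subunit, a channel of the ELK group and 3 inward rectifiers. Kcnf1 (ENSMUSG00000051726, chr12:17172100-17176888), a silent subunit, had normalized counts of 1196 and 1219 at 0 h and 3231 and 3422 at 2 h, a rise of 1.46 on the log2 scale (SE 0.11, adjusted p 6.02e-39). Kcnj4 (ENSMUSG00000044216, chr15:79483714-79505241), a strong inward rectifier of the Kir2 group that sits at excitatory synapses, had 273.4 and 304.2 at 0 h and 606.2 and 753.7 at 2 h, a rise of 1.23 (SE 0.18, adjusted p 3.72e-10). The libraries of the groups did not overlap for either gene. Kcnh4, which encodes a voltage-gated channel of the ELK group, had 79.0 and 91.9 at 0 h and 160.8 and 238.8 at 2 h (log2 fold change 1.22, SE 0.28, adjusted p 0.000151), but without 2 h replicate 2 its change was 0.89 and it was not called. Kcnj1 and Kcnj14, both with a mean count under 50, were the other 2. Kcnj1, the ROMK channel known from the kidney, had normalized counts of 0.0 in both 0 h libraries, 3.0 and 7.24 at 2 h, then 51.4 and 81.7 at 6 h, and its 2 h call was lost without either 0 h library and without 2 h replicate 2, which left 4, 4 and 3 members called higher. Kcnj14 had 6.21 and 9.27 at 0 h, 48.9 and 52.7 at 2 h, then 22.5 and 24.7 at 6 h, so that its highest level was at 2 h.

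Promoter windows are shown for Kcnf1 and Kcnj4, which rose by 2 h. They are also shown for Kcna4 and Kcnh8, whose counts were lower at 2 h and higher at 6 h. Whether factors induced by calcium entry act on these promoters was not tested. The windows are those of RefSeq on GRCm38.p6, from 250 bases before to 50 bases after an annotated start, given 5′ to 3′ on the strand of the gene, at chr12:17176839-17177138 (minus) for Kcnf1, chr15:79505192-79505491 (minus) for Kcnj4, chr2:107290339-107290638 (plus) for Kcna4 and chr17:52602459-52602758 (plus) for Kcnh8. Capitals mark every match, on either strand, to TGACG, the short form of the cyclic AMP response element, and to GCGNGGGCG, the EGR letters.
Kcnf1: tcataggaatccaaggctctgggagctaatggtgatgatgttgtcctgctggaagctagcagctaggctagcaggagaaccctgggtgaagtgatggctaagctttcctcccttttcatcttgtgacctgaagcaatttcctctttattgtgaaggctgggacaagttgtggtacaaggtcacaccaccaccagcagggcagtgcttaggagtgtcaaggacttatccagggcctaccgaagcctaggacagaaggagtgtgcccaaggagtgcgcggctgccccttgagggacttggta
Kcnj4: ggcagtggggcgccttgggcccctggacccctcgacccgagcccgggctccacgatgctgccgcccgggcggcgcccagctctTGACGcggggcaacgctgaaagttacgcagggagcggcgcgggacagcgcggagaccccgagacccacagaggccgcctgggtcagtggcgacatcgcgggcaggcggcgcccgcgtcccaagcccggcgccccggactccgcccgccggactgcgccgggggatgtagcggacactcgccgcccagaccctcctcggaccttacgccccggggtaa
Kcna4: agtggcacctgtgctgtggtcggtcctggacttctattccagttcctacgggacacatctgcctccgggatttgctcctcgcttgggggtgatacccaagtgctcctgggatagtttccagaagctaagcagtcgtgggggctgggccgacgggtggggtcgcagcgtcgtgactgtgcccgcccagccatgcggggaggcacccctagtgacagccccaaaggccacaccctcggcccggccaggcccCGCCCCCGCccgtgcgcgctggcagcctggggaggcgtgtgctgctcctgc
Kcnh8: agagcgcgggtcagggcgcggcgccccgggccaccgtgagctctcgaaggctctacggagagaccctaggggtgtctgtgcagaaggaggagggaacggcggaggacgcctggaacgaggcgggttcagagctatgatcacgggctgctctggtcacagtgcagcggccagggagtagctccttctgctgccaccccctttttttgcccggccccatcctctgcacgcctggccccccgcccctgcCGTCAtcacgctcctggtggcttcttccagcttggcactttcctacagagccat

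The Kcnj4 window held TGACG with its first base at -167 from the start and the Kcnh8 window held its reverse complement at -4, the Kcna4 window held the EGR letters at -1, and the Kcnf1 window held no match. A window was found for 69 of the 94 members. TGACG was in 18 of these 69 (26.1%) and in 23.0% of all 27025 genes with a window. The full element TGACGTCA, which contains the short form, was in 0 of 69 and in 2.03% of all genes, and the CArG box was in 0 of 69 and in 1.81% of all genes. TGANTCA, the AP-1 letters, was in 4 (5.8%) against 8.97%, and the EGR letters were in 4 (5.8%) against 6.27%. A match is a description of the window and was not tested as a binding site.

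Of the 6 members called lower at 2 h, 4 were silent subunits. Of 8 silent modifier genes tested, 4 were called lower (Kcns2, Kcnv1, Kcng1 and Kcns3; 5.94% of all genes tested) and 1 higher (Kcnf1; 3.62% of all genes tested). Kcns2 had 278.7 and 257.9 normalized counts at 0 h and 62.9 and 53.8 at 2 h, a change of -2.20 (SE 0.22, adjusted p 6.36e-22). Kcnv1 had 904.6 and 745.0 at 0 h and 382.5 and 267.8 at 2 h, with a change of -1.34 (SE 0.22, adjusted p 2.25e-08). Kcng1 had 522.0 and 485.4 at 0 h and 225.7 and 252.3 at 2 h, with a change of -1.08 (SE 0.18, adjusted p 3.2e-08). No library at 2 h reached the lowest 0 h library for any of these 3 genes. The silent subunit Kcns3 (mean count under 50) had 49.7 and 40.5 at 0 h and 6.99 and 13.4 at 2 h, and its call was lost without either 0 h library and without 2 h replicate 1.

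The other 2 members called lower were Kcnh8 and Kcnj11. Kcnh8, a second ELK channel gene, had 72.8 and 63.2 at 0 h and 32.0 and 27.9 at 2 h, with a change of -1.18 (SE 0.36, adjusted p 0.00537). It was therefore opposite in direction to Kcnh4 of the same group. This call was not held when single libraries were left out, with changes of -1.07 and -1.27 without 0 h replicates 1 and 2 (adjusted p 0.206 and 0.0973), -1.11 without 2 h replicate 2 (adjusted p 0.0876) and -1.18 without either 6 h library (adjusted p 0.0574 and 0.0536). Kcnj11, the pore of the ATP-sensitive channel (mean count under 50), had 41.7 and 43.8 at 0 h and 9.99 and 11.4 at 2 h, and lost its call without either 0 h library. Kcna4 (-0.98, SE 0.16, adjusted p 2.15e-08) and Kcnd1 (-0.97, SE 0.21, adjusted p 3.4e-05), which both encode A-type channels, lay just inside the fold threshold and were not called.

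The other classes had no call at 2 h in DESeq2. DESeq2 called 3.62% of all genes tested higher and 5.94% lower at 2 h, so a count of 0 in classes this small says little. Of 14 auxiliary, 10 two-pore and 7 calcium-activated members tested, 0 were called by DESeq2 or edgeR. At an unadjusted p under 0.05 there were 1, 2 and 0 of them in DESeq2 and 2, 5 and 2 in edgeR. Kcnk10, the two-pore channel TREK-2, came closest, with 653.4 and 651.4 normalized counts at 0 h and 365.5 and 362.9 at 2 h (log2 fold change -0.84, SE 0.14, adjusted p 7.61e-08). Scaled by library totals, its change was -1.01 and was called. The values of Kcnip1 (0.13, SE 0.13, adjusted p 0.505), Kcnip3 (-0.04, SE 0.15, adjusted p 0.903), Kcnma1 (0.29, SE 0.17, adjusted p 0.208), Kcnu1 (0.38, SE 0.22, adjusted p 0.204) and Kcnk2 (-0.05, SE 0.11, adjusted p 0.814) did not pass. Of the abundant inward rectifiers, Kcnj3 changed by 0.33 (SE 0.22, adjusted p 0.299) and Kcnj10 by -0.37 (SE 0.12, adjusted p 0.00936), and Kcna6 changed by -0.50 (SE 0.11, adjusted p 6.39e-05), below the fold threshold.

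The 6 h libraries were next compared with those of 0 h, which also served the first comparison. Of 79 members tested, 16 (20.3%) were called higher, against 9.1% of all genes tested, and 13 lower, against 10.2% of all genes tested. The median log2 fold change of the tested members was 0.10, and that of all genes tested was 0.0. With library totals as size factors, which moved the median of all genes by -0.25, 13 members were called higher and 16 lower, so that which direction held more calls depended on the scaling. By class, the inward rectifiers had 6 higher and 2 lower of 13 tested, the voltage-gated genes 7 higher and 9 lower of 35, the two-pore channels 2 higher and 0 lower of 10, the auxiliary subunits 1 higher and 1 lower of 14 and the calcium-activated channels 0 higher and 1 lower of 7.

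**Figure D3:**
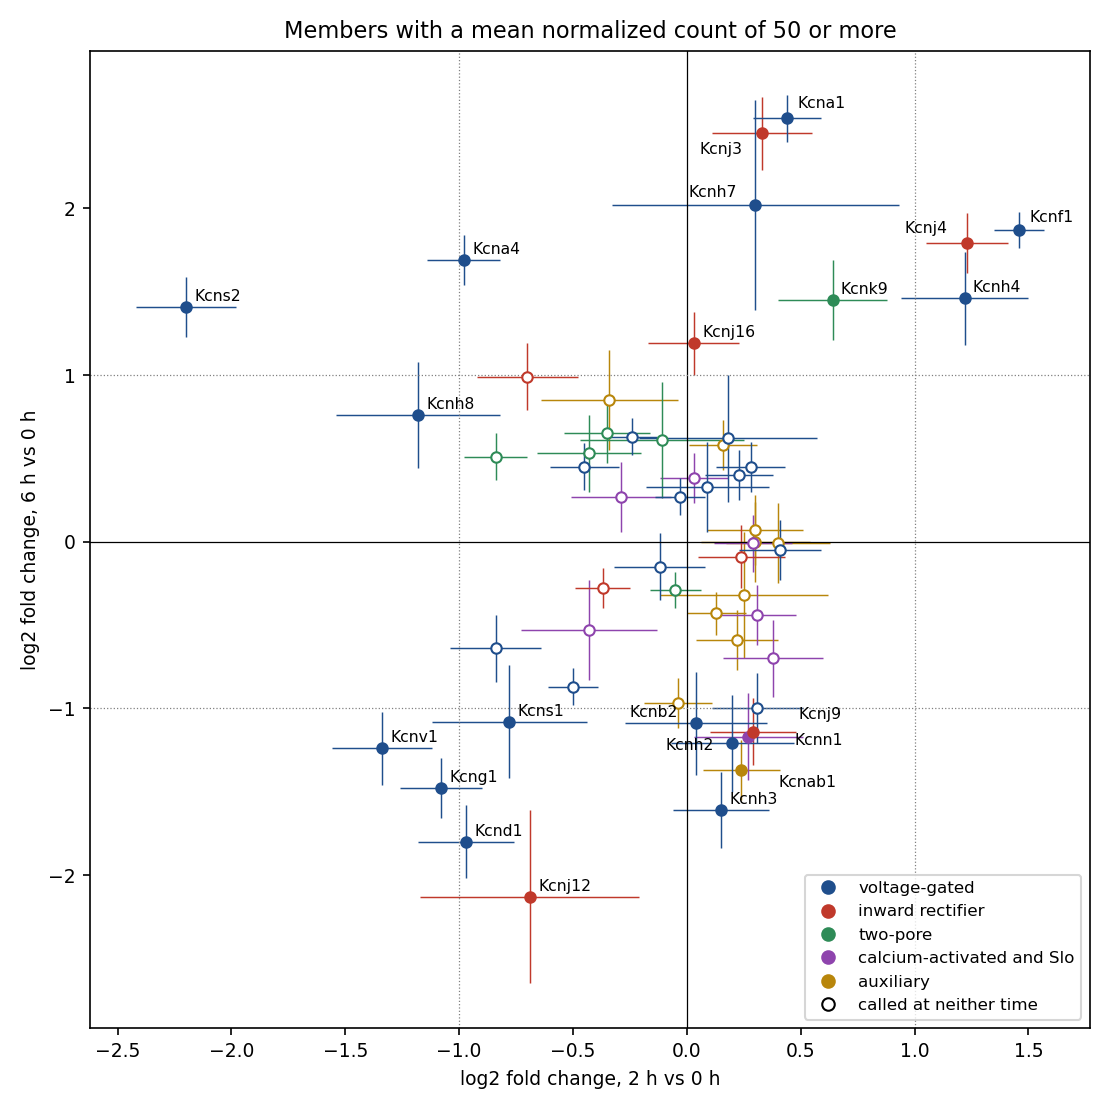
Log2 fold change at 2 h (horizontal axis) and at 6 h (vertical axis), each against the same 0 h libraries, for 57 of the 61 members averaging 50 normalized counts or more (the other 4 are not shown), with bars for the SE, filled symbols for members called at either time and dotted lines at the fold threshold of 1. Kcnf1, Kcnj4 and Kcnh4 lie at upper right, Kcng1 and Kcnv1 at lower left, and Kcns2 alone lies beyond the threshold in opposite directions (-2.20 and 1.41).

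Among the inward rectifiers, the subunits of the G-protein-gated (GIRK) channels, through which inhibitory receptors quiet neurons, did not move as 1 group. Kcnj3 (GIRK1; ENSMUSG00000026824, chr2:55435970-55598145) had normalized counts of 933.0 and 785.4 at 0 h, 1314 and 843.6 at 2 h, then 4679 and 4694 at 6 h. Its change at 6 h was 2.45 (SE 0.22, adjusted p 8.16e-28), and in TPM it went from rank 10 among the members at 0 h to rank 1 at 6 h. Kcnj3 overlaps Gm26794 and shared reads with other genes in all 6 libraries, so its counts are less certain. Kcnj9 (GIRK3) fell, with 276.1 and 276.4 at 0 h and 133.8 and 117.2 at 6 h (log2 fold change -1.14, SE 0.20, adjusted p 1.22e-07). Kcnj6 (GIRK2), with 231.7 and 209.0 at 0 h and 400.2 and 472.2 at 6 h, had a change of 0.99, just under the threshold. Kcnj5 (GIRK4), with a mean count under 50, was called higher, from 5.33 and 5.06 at 0 h to 32.1 and 32.3 at 6 h.

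The strong inward rectifiers of the Kir2 group also differed among themselves. Kcnj4 reached 936.3 and 1065 normalized counts at 6 h and was 1.79 above 0 h (SE 0.18, adjusted p 1.75e-21). Kcnj12, with 110.1 and 59.0 at 0 h and 15.0 and 23.7 at 6 h, had the most negative change of the members with a mean count of at least 50, -2.13 (SE 0.52, adjusted p 0.000156), and without 0 h replicate 1 it was -1.61 and was not called. Kcnj2 had a change of -0.09 (adjusted p 0.731), and Kcnj14 was called higher with a mean count under 50. The group thus held both directions. Kcnj16, whose product joins that of Kcnj10 in glial and kidney channels, had 267.2 and 287.4 at 0 h and 627.0 and 642.1 at 6 h (log2 fold change 1.19, SE 0.19, adjusted p 6.09e-09), though with library totals its change was 0.95 and it was not called. Kcnj10 itself had 1408 and 1468 at 0 h and 1155 and 1210 at 6 h (-0.28, SE 0.12, adjusted p 0.0388), and the astrocyte markers, of which 0 of 8 were called in DESeq2 or edgeR (5 at an unadjusted p under 0.05 by either), summed to 835.8 and 906.4 TPM at 0 h and 632.3 and 604.2 TPM at 6 h. The part of these markers in the result was not tested.

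In the Kv1 family, which carries low-threshold and A-type currents of axons, 2 genes rose strongly by 6 h. Kcna1 (ENSMUSG00000047976, chr6:126640397-126646384), the gene of episodic ataxia, had normalized counts of 458.9 and 442.4 at 0 h, 666.1 and 557.2 at 2 h, then 2632 and 2599 at 6 h, a rise of 2.54 (SE 0.14, adjusted p 9.7e-70). Kcna4 (ENSMUSG00000042604, chr2:107290639-107298502), an A-type subunit, had 493.6 and 423.9 at 0 h, 230.7 and 235.7 at 2 h, then 1445 and 1509 at 6 h, a rise of 1.69 over 0 h (SE 0.15, adjusted p 1.67e-28). All 4 libraries at 0 h and 2 h lay under the 6 h libraries for both genes. Kcna6, the most abundant Kv1 gene at 0 h, had 2606 and 2644 at 0 h and 1423 and 1458 at 6 h, a change of -0.87 (SE 0.11, adjusted p 2.17e-13) that did not reach the fold threshold, although with library totals it was -1.11 and was called. Kcna2 changed by -0.64 (adjusted p 0.00464) and Kcna3 by 0.33 (adjusted p 0.333). In TPM, Kcna6 was at 41.1 and 42.3 and Kcna1 at 3.73 and 3.63 at 0 h, whereas at 6 h Kcna6 stood at 19.6 and 19.8 and Kcna1 at 18.7 and 18.8.

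Among the high-threshold Kv3 genes, which serve fast firing, Kcnc1 changed by 0.63 (adjusted p 1.26e-07), Kcnc2 by -0.15 (adjusted p 0.58) and Kcnc4 by -1.0 (adjusted p 1.62e-05), and these 3 were not called. Kv3 genes are prominent in fast-spiking interneurons, and of 7 interneuron markers 3 (Gad1, Gad2 and Sst) were called higher at 6 h, with a sum of 515.5 and 570.8 TPM at 0 h and 944.2 and 959.6 TPM at 6 h. Pvalb, the marker of the fast-spiking type, stayed at or under 0.88 TPM in every library. The part of these cells in the result was not tested.

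Of 8 EAG, ERG and ELK channel genes tested, 2 were called higher (9.1% of all genes tested) and 2 lower (10.2% of all genes tested) at 6 h. Kcnh7, an ERG gene, had 965.8 and 624.5 at 0 h, 1458 and 497.3 at 2 h, then 3149 and 3291 at 6 h, with a change at 6 h of 2.02 (SE 0.63, adjusted p 0.00418). Of the 61 members averaging 50 counts or more it was the only one to differ more than 2-fold between the 2 h replicates, it overlaps Gca and shared reads in all 6 libraries, and its call was lost without 0 h replicate 2 (1.74, adjusted p 0.115), 6 h replicate 1 (2.05, adjusted p 0.0831) or 6 h replicate 2 (1.99, adjusted p 0.0951). Kcnh4 had 244.0 and 225.9 at 6 h and was 1.46 above 0 h (SE 0.28, adjusted p 1.49e-06). The 2 that fell were Kcnh3 and Kcnh2. Kcnh3, an ELK gene that overlaps Mcrs1, had 351.5 and 370.0 at 0 h, 344.5 and 457.0 at 2 h, then 116.6 and 120.5 at 6 h (-1.61, SE 0.23, adjusted p 1.57e-11). Kcnh2, the ERG gene of long QT syndrome, had 143.8 and 158.4 at 0 h and 77.0 and 53.8 at 6 h (-1.21, SE 0.29, adjusted p 9.74e-05), and without 6 h replicate 2 its change was -0.97 and it was not called.

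The Kv4 family carries A-type currents, with KChIP proteins as partners. Kcnd1, a Kv4 gene, fell, with 310.7 and 348.0 normalized counts at 0 h, 164.8 and 171.6 at 2 h, then 92.0 and 96.8 at 6 h (-1.80 at 6 h, SE 0.22, adjusted p 5.96e-15), and each later time lay under the time before. The more abundant Kcnd2 and Kcnd3 changed by 0.45 and 0.27 and were not called. In DESeq2 and in edgeR 0 of the 4 KChIP genes were called at 6 h, although 3 of them had an adjusted p at or under 0.05 in DESeq2, and 3 an unadjusted p under 0.05 by either tool. Kcnip3, which also acts as a calcium-dependent repressor of transcription, had 1237 and 1281 at 0 h and 636.7 and 650.7 at 6 h (-0.97, SE 0.15, adjusted p 3.16e-09), and it was called with library totals (-1.21) and with TMM factors (-1.01). Kcnip1 had 1101 and 1027 at 0 h and 818.6 and 759.3 at 6 h (-0.43, SE 0.13, adjusted p 0.00249). The 4 KChIP genes together made up 13.8% and 14.3% of the summed TPM of the members at 0 h and 7.96% and 7.33% at 6 h.

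Kcnb2, a gene of the Kv2 family that carries the delayed rectifier of the soma, fell, with 888.6 and 622.8 at 0 h and 369.2 and 338.8 at 6 h (-1.09, SE 0.31, adjusted p 0.00137), and without 0 h replicate 1 its change was -0.81 and it was not called; it overlaps Gm37138 on the same strand. The M-current genes Kcnq3 and Kcnq5 were not called, with changes of -0.05 (adjusted p 0.843) and 0.45 (adjusted p 0.00545).

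Of the 8 silent modifier genes tested, 2 were called higher (9.1% of all genes tested) and 4 lower (10.2% of all genes tested) at 6 h. Kcnf1 reached 4552 and 4248 normalized counts, 1.87 above 0 h (SE 0.11, adjusted p 5.86e-64), and in TPM it went from rank 15 among the members to rank 3. Kcns2 (ENSMUSG00000050963, chr15:34837355-34843407), which had fallen at 2 h, had 683.8 and 738.9 at 6 h and was 1.41 above 0 h (SE 0.18, adjusted p 2.39e-14). The lower genes were Kcng1, Kcnv1, Kcns1 and Kcng2. Kcng1 had 183.0 and 178.5 at 6 h (-1.48, SE 0.18, adjusted p 1.17e-14) and Kcnv1 had 353.1 and 344.2 (-1.24, SE 0.22, adjusted p 1.18e-07). Kcns1 had 98.5 and 137.4 at 0 h and 50.3 and 61.3 at 6 h (-1.08, SE 0.34, adjusted p 0.00483), a call lost without 0 h replicate 2 (-0.82), 6 h replicate 1 (-0.95) or 6 h replicate 2 (-1.23, adjusted p 0.0511). Kcng2, with a mean count under 50, had 16.0 and 26.1 at 0 h and 1.07 and 3.23 at 6 h, and it lost its call without 0 h replicate 2 and without either 6 h library.

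**Figure D4:**
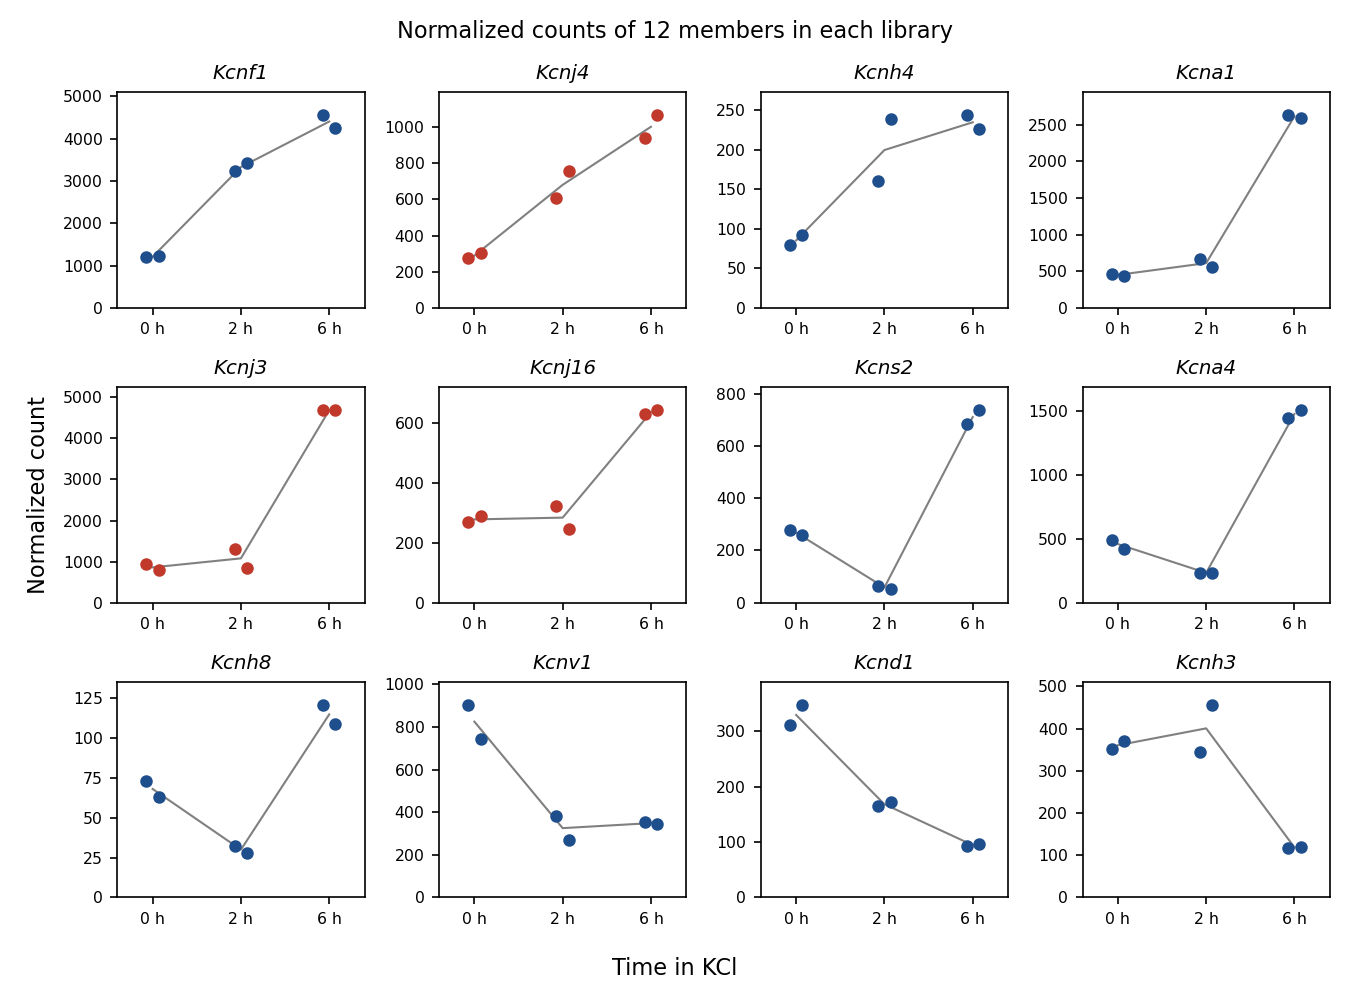
Normalized counts (vertical axes, each from 0) of 12 members against time in KCl, with a point for each library and a line through the means. Kcnf1, Kcnj4 and Kcnh4 are already higher at 2 h, Kcna1, Kcnj3 and Kcnj16 rise between 2 h and 6 h, Kcns2, Kcna4 and Kcnh8 are lowest at 2 h, and Kcnv1, Kcnd1 and Kcnh3 end lower.

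Outside the voltage-gated and inward rectifier classes, the members called at 6 h with a mean count of at least 50 were Kcnk9, Kcnab1 and Kcnn1. Kcnk9 (TASK-3), an acid-sensitive leak channel, had 167.8 and 161.8 at 0 h, 236.7 and 276.0 at 2 h, then 373.4 and 525.9 at 6 h (1.45, SE 0.24, adjusted p 1.08e-08). Kcnab1, an auxiliary subunit that gives Kv1 channels fast inactivation, had 620.5 and 592.4 at 0 h, 783.9 and 644.1 at 2 h, then 219.4 and 250.6 at 6 h (-1.37, SE 0.18, adjusted p 9.43e-13), so it fell while Kcna1 and Kcna4 rose. Kcnn1, a small-conductance calcium-activated channel, had 173.1 and 178.7 at 0 h and 82.4 and 74.2 at 6 h (-1.17, SE 0.26, adjusted p 2.29e-05). Kcnk5 and Kcnmb3 were called higher with mean counts under 50. Kcnk5 had 9.76 and 5.06 at 0 h and 32.1 and 22.6 at 6 h, and Kcnmb3 had 0.0 in both 0 h libraries and 9.63 and 15.1 at 6 h.

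The abundant members of these classes moved less. Kcnk2 had 1428 and 1384 at 0 h and 1152 and 1142 at 6 h (-0.29, SE 0.11, adjusted p 0.0201), and Kcnk10 had 882.8 and 969.1 at 6 h (0.51, SE 0.14, adjusted p 0.00082). Kcnma1 had 2062 and 1751 at 0 h and 1914 and 1885 at 6 h, with overlapping libraries and a change of -0.01 (SE 0.17, adjusted p 0.985). Kcnu1 changed by -0.70 (SE 0.23, adjusted p 0.00628), short of the fold needed for a call. The 6 h calls of low-count members were the least stable, since without 0 h replicate 2, 6 h replicate 1 or 6 h replicate 2 the 16 members called higher became 11, 12 and 11, with Kcnj14, Kcnj5, Kcnk5 and Kcnmb3 among those lost each time. Without 0 h replicate 1 the same 4 were lost and 13 members were called. Kcnj14 was also lost without either 2 h library (14 and 15 members called), Kcnk5 without 2 h replicate 1, and Kcnj6 was added without 0 h replicate 1 and without 6 h replicate 1.

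The step from 2 h to 6 h was compared directly, with the 2 h and 6 h libraries that also entered the comparisons above. Of 79 members, 15 (19.0%) had a call upward from 2 h to 6 h, against 10.1% of all genes tested, and 10 (12.7%) lower, against 8.02% of all genes tested. The median log2 fold change was 0.17 over the tested members and -0.005 over all genes tested. Of 79 members tested, 8 (10.1%, against 3.73% of all genes tested) met the definition of late response genes used in the study, called higher at 6 h than at both 0 h and 2 h (among them Kcna1, Kcna4, Kcnh7, Kcnj1, Kcnj3, Kcnj16 and Kcns2), and 0 (against 0.506% of all genes tested) met that of early response genes, which DESeq2 must call higher at 2 h over 0 h and then lower from 2 h on to 6 h. Kcnj14 was the member whose mean was highest at 2 h among those called at 2 h, and its change from 2 h to 6 h was not called in DESeq2, while edgeR called it lower.

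Of the members with a mean count of at least 50, Kcns2 had the largest rise in this step, 3.61 on the log2 scale (SE 0.21, adjusted p 8.84e-61), followed by Kcna4 at 2.66 (SE 0.16, adjusted p 2.55e-62). Kcnj3 rose by 2.12 (SE 0.22, adjusted p 6.45e-21), Kcna1 by 2.10 (SE 0.14, adjusted p 4.96e-48) and Kcnh7 by 1.72 (SE 0.63, adjusted p 0.0164), the last with values of 1.75 and 1.69 and no call without 6 h replicates 1 and 2. Kcnh8, Kcnj6 and Kcnk10 had log2 changes of -1.18, -0.70 and -0.84 at 2 h, of which those of Kcnj6 and Kcnk10 were not called. Kcnh8 went from 32.0 and 27.9 at 2 h to 120.9 and 108.6 at 6 h (1.94, SE 0.35, adjusted p 2.93e-07), Kcnj6 from 144.8 and 126.1 to 400.2 and 472.2 (1.69, SE 0.21, adjusted p 3.99e-14) and Kcnk10 from 365.5 and 362.9 to 882.8 and 969.1 (1.35, SE 0.14, adjusted p 1.34e-19). In all 3 the 6 h libraries also lay above those of 0 h.

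Kcnj16 and Kcnmb2, an inactivating auxiliary subunit of the BK channel, rose by 1.16 (SE 0.20, adjusted p 2.24e-08) and 1.18 (SE 0.30, adjusted p 0.000339). Neither was called without 2 h replicate 2 (0.99 and 0.85) or with GC correction (0.93 and 0.82), and the 2 h replicates of Kcnmb2 stood at 170.8 and 97.2. Kcnj1, Kcnj11, Kcns3 and Kcnrg were the other members called higher, each with a mean count under 50. Of these, Kcnrg, a regulator of Kv1 channel assembly that overlaps Dleu2, lost its call without any 1 of the 6 libraries, Kcns3 without any library but 2 h replicate 2, and Kcnj11 without 2 h replicate 1 or 6 h replicate 1, and the count of members called higher then ran from 12 to 14, with Kcnk1, Kcnk3 or Kcnk9 added in 2 of the cases.

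The members called lower at 6 h than at 2 h had not been called at 2 h. Kcnh3 had a change of -1.76 (SE 0.23, adjusted p 1.7e-13), Kcnab1 of -1.60 (SE 0.18, adjusted p 4.75e-17) and Kcnj12 of -1.44 (SE 0.53, adjusted p 0.0158). Kcnn1 had a change of -1.43 (SE 0.25, adjusted p 1.42e-07), Kcnj9 of -1.43 (SE 0.20, adjusted p 1.88e-11) and Kcnh2 of -1.41 (SE 0.29, adjusted p 5.02e-06). Kcnc4, a Kv3 gene with an inactivating current, went from 320.6 and 394.9 at 2 h to 153.0 and 135.5 at 6 h (-1.31, SE 0.21, adjusted p 9.37e-09). Kcnb2 (-1.14, SE 0.31, adjusted p 0.000852) and Kcnu1 (-1.08, SE 0.23, adjusted p 1.09e-05) were also called. Single libraries decided 3 of these calls: Kcnj12 was not called without 2 h replicate 2 (-1.20) or 6 h replicate 1 (-1.15), Kcnb2 was not called without 2 h replicate 1 (-0.61), and Kcnu1 was not called without 6 h replicate 2 (-0.96). Kcna6 (-0.36, SE 0.11, adjusted p 0.00449), Kcnip1 (-0.57, SE 0.13, adjusted p 5.03e-05), Kcnip3 (-0.93, SE 0.15, adjusted p 1.81e-08), Kcnk2 (-0.24, SE 0.11, adjusted p 0.063), Kcnma1 (-0.29, SE 0.17, adjusted p 0.141) and Kcnj10 (0.09, SE 0.12, adjusted p 0.589) were not called.

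Over the 3 comparisons 38 of 79 members tested (48.1%) were called at least once, against 28.5% of all genes tested. Of the 56 members never called, 15 had too few counts to test. Neighbouring channel genes on a chromosome were compared because several lie close together. On chromosome 6, Kcna1 rose while Kcna6, 61.9 kb away, had a change of -0.87 at 6 h. On chromosome 11, Kcnj16 was called higher and Kcnj2, 38.2 kb away, was not called (-0.09). Kcnj9 was called lower at 6 h and Kcnj10, 11.9 kb away on chromosome 1, had a change of -0.28. Kcnj5 and Kcnj1, 28.1 kb apart on chromosome 9, were both called higher at 6 h, with mean counts under 50.

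A change in the mix of transcripts of a gene moves its effective length, which was tested with limma over 11233 genes. Of 56 members tested, 0 were called at 2 h vs 0 h, at 6 h vs 0 h or at 6 h vs 2 h, against 0.0356%, 0.525% and 0.116% of all genes tested. At an unadjusted p under 0.05 there were 1, 3 and 2 members.

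Genes whose products act with potassium channels were followed as a fixed list of 32. At 2 h 0 of 32 were called in DESeq2 or edgeR, while DESeq2 called 3.62% of all genes tested higher and 5.94% lower. Of the 32, 11 had an unadjusted p under 0.05 by either. In DESeq2 5 were higher and 3 lower at 6 h than at 0 h, and 2 were higher and 3 lower at 6 h than at 2 h. As shares of the list these are 15.6% and 9.38% for 6 h vs 0 h (9.1% and 10.2% of all genes tested) and 6.25% and 9.38% for 6 h vs 2 h (10.1% and 8.02% of all genes tested). The pacemaker channel genes Hcn3 (-1.59, SE 0.18, adjusted p 1.02e-17) and Hcn4 (-1.01, SE 0.17, adjusted p 1.23e-08) fell. Atp1b1, a subunit of the sodium pump, which returns potassium to the cell, rose by 1.34 (SE 0.10, adjusted p 3.83e-37). Lgi1, a secreted partner of the Kv1 complex, rose by 1.22 (SE 0.13, adjusted p 1.32e-19), while Cntn2, an adhesion protein that holds Kv1 channels beside the node of Ranvier, fell by 1.21 (SE 0.14, adjusted p 1.04e-16). At 6 h against 2 h the called partners included Lgi1 (1.08), higher, and Cntn2 (-1.33), Hcn3 (-1.69) and Sptbn4 (-1.43), lower. Lrrc26, an auxiliary subunit of the BK channel, was also called higher at 6 h, with a mean count under 50.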

How the data were processed

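RNA of 6 libraries was sequenced as stranded poly(A) RNA-seq with paired ends. The authors trimmed reads with Trim Galore and quantified them on mm10 with RSEM, and the submitters' processing notes name RSEM 1.3.0 and Bowtie2 2.2.9. The annotation release is not given in the sources used here. The authors made each expected count with RSEM, which divides reads among transcripts, and the deposited files also hold TPM and effective length (in bases) per gene. The deposited FPKM values were not used. Identifiers were matched to GENCODE M21, which gave a symbol and position for 42548 of 43432.

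After rounding, the 22515 genes with a count were fitted with DESeq2 1.42.0 (R 4.3.3; Wald test, all 6 libraries, group as the only term, Benjamini-Hochberg adjustment). Calls needed an adjusted p no higher than 0.05 together with a log2 change of more than 1 in size. The study's methods name DESeq2 and these thresholds, and the other settings were chosen here. TPM was used for levels between genes and, with no test, for sums, shares and levels over time. Effective length was tested with limma 3.58.1 on log2 values for genes averaging 100 expected counts or more, and called at an absolute log2 ratio of at least 0.2. Because 1 read pair can be divided between overlapping genes, members listed as sharing reads had expected counts that were not whole.

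Members and gene lists were chosen with earlier results of these data known. Test values were printed for called members averaging 50 normalized counts or more and for the 2 members of each class with the highest TPM at 0 h. Values of some members and partner genes are not reported here, although the counts include them. Other members of the same families, such as Kcna2, Kcnc2 and Kcnq3, were added after their values were seen. Alternatives were edgeR 4.0.16, TMM factors, library totals, a minimum mean of 10 normalized counts, no independent filtering, GC correction, a replicate block, a test against a 2-fold change and leaving out each library. In data simulated for 6 h vs 0 h over 21777 genes, DESeq2 recovered 97% of genes changed by 1.5 on the log2 scale. It recovered 100% of those changed by 2.5, with 0 false calls (edgeR recovered 99% and 100%). The changed genes all averaged 50 normalized counts or more, and 1 level of spread was set for all genes with no GC trend. The simulation therefore does not cover changes in genes with lower counts or the larger spread at 2 h. Total depth was 25959298 to 28573067 counts per library.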

Additional observations from a re-analysis of the deposited data

How the results depend on the processing

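Library totals in place of size factors moved the median log2 fold change of all genes by -0.17 at 2 h, by -0.25 at 6 h, each against 0 h, and by -0.08 from 2 h to 6 h, and raised the members called lower at 2 h from 6 to 11. A test against a 2-fold change left 1 member higher and 1 lower at 2 h, 7 higher and 1 lower at 6 h vs 0 h, and 7 higher and 2 lower at 6 h vs 2 h. With each library left out in turn, members called ran from 3 to 5 higher and 4 to 7 lower at 2 h, from 11 to 15 higher and 10 to 14 lower at 6 h vs 0 h, and from 12 to 14 higher and 9 to 10 lower at 6 h vs 2 h. edgeR called 5 higher and 7 lower, 15 higher and 14 lower, and 18 higher and 12 lower in the same comparisons, and it kept the direction and call of all 70 values of named members. The changes that turned sign were small and were called under neither setting. At 2 h vs 0 h they were Kcnip1 with library totals (-0.03) and, without single libraries, Kcnip3 (-0.22 to 0.10, above 0 without 2 h replicate 1) and Kcnj3 (-0.04 to 0.60, below 0 without 2 h replicate 1). At 6 h vs 0 h the change that turned sign was that of Kcnma1, without single libraries (-0.12 to 0.12, above 0 without 0 h replicate 1 and, at 0.01, without 6 h replicate 2) and with the replicate block (0.002). Same-numbered libraries deviated together with correlations of 0.281, -0.00226 and 0.152, so the numbers were not taken to pair the samples, and with the replicate block 5 higher and 6 lower, 16 higher and 13 lower, and 14 higher and 10 lower members were called. Members at 1 TPM or more at 0 h were 65, against 69 at 0.5 TPM and 59 at 2 TPM. Effective length gave 0 called members in limma under each alternative run. In the main limma fit 1, 3 and 2 members had an unadjusted p under 0.05. The cause of these differences was not tested.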
